A study of Mus musculus with 12 samples.

Results

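Expression of 10 genes that are typical of macrophages was followed in RNA sequencing libraries of mouse embryonic stem (ES) cell cultures. The genes are Csf1r, Tyrobp, Fcer1g, Lcp1, Cyba, Lyz2, C1qa, C1qb, C1qc and Cd68. They were found by gene symbol, each in 1 row, among 54446 genes listed per library. They had been chosen by their known use in macrophages and by their measured TPM, most of which fell during treatment, so their course over time is described here without a test. The cell lines were compared by tests. Earlier results of these data were known when the genes were chosen, so these tests are not blind to the choice.

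The 12 libraries form 6 groups of 2. KH cells are the wild type, and DNMT3ABKO cells carry a knockout of Dnmt3a and Dnmt3b, the enzymes of de novo DNA methylation. Each line was collected untreated (0 h) and after 72 and 144 h in INK128, an inhibitor of the mTOR kinase that slows ES cell growth into a paused state. No untreated culture of 72 or 144 h was part of the series, so treatment and time in culture cannot be told apart, and each genotype is represented by 1 line. Both line names carry E14 in the labels, while the wild type of these cells is KH2 in the methods of the study. According to these methods KH2 and Dnmt3a/b knockout cells grow on feeders, fibroblasts that have been treated so that they no longer divide, and cells were sorted before the RNA was extracted. The study describes its experiments as independent repeats and says that the times of a replicate were handled side by side, as a general statement. The labels do not tie the replicate numbers to cultures or days. Where the call of a gene printed with its p-value ends with the replicate number as a block in the fit, that value is given too (replicate block).

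Macrophages are phagocytes of the innate immune system that live in nearly all tissues and depend on signals through the receptor encoded by Csf1r. They engulf dead cells and particles, and they secrete lysozyme and the C1q proteins that start the classical complement pathway. ES cells are not a known source of these products, whereas cell preparations from embryos, such as those from which feeder layers are made, can hold macrophages beside fibroblasts.

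Values are TPM, a share of each library's RNA that is corrected for transcript length, so levels can be compared between genes. TPM do not keep the read depth, which the study gives in an extended figure and which was not used here. The knockout label was checked first, and Dnmt3b stood at 142 to 258 TPM in KH libraries and at 12.7 to 27.5 TPM in DNMT3ABKO libraries. Dnmt3a stood at 54.7 to 144 TPM in KH and at 7.35 to 21.9 TPM in DNMT3ABKO libraries. ES cell markers were high throughout, with a sum over 7 genes of 3849 to 4073 TPM at 0 h and of 5781 to 6371 TPM later. The DNMT3ABKO libraries of 0 h differed more from each other than those of any other group, with an SD between replicates of 0.27 on the log2(TPM + 1) scale against 0.13 to 0.18.

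The macrophage label was compared with genes outside the 10. At 0 h the macrophage surface protein gene Adgre1 stood at 7.23 and 8.71 TPM in KH and at 5.10 and 6.53 TPM in DNMT3ABKO cells. Spi1, which encodes the myeloid transcription factor PU.1, stood at 2.20 to 3.91 TPM in the same 4 libraries, and Ptprc, the pan-leukocyte gene of CD45, at 2.06 to 2.7 TPM. Other macrophage surface genes were low or nearly absent. Over the 12 libraries Cd163 was at most at 0.07 TPM, Marco at 0.18 TPM, Cx3cr1 at 0.54 TPM and Siglec1 at 0.93 TPM. Genes of other cell types were also present at low levels. Of 9 lymphocyte markers, which summed to 1.87 to 3.92 TPM over the 12 libraries, the T cell receptor gene Cd3e was at 0.91 to 2.02 TPM and the B cell receptor gene Cd79a at 0.14 to 1.49 TPM, while Cd3g was listed at 0 in all. Cd3e was lower in DNMT3ABKO than in KH cells at 72 h (log2 difference -0.49, SE 0.12, adjusted p = 0.0191), with an adjusted p of 0.0673 under the replicate block. The 8 neutrophil and mast cell markers summed to at most 0.36 TPM, and S100a9, Elane, Cpa3 and Mcpt4 were listed at 0 in all 12 libraries. Of 6 erythroid and megakaryocyte markers, which summed to 0.62 to 4.59 TPM, the platelet chemokine gene Ppbp stood at 1.56 to 2.91 TPM and the integrin gene Itga2b at 1.21 to 1.61 TPM at 0 h, and the globin gene Hbb-bs was listed at 0. Ppbp was called lower at 144 h in both lines. At 0 h the levels of Ppbp overlapped those of Spi1 and Ptprc.

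Of 7 endothelial markers, which summed to 4.41 to 14.7 TPM, the receptor gene Tek was at 1.58 to 4.18 TPM, the adhesion gene Esam at 2.41 to 6.22 TPM, the receptor gene Tie1 at 0.045 to 5.75 TPM and the cadherin gene Cdh5 at most at 0.31 TPM. Tek and Tie1 were called higher at 144 h than at 0 h in both lines, although for Tie1 in KH cells the adjusted p was 0.0658 under the replicate block. The part of these cell types in the results was not tested. The labelled sample is an ES cell culture, and 13 of 15 fibroblast markers were also above the 1 TPM mean that was set for testing.

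At 0 h the 10 genes summed to 314 and 336 TPM in KH and to 275 and 297 TPM in DNMT3ABKO cells. Lyz2, which encodes the bacteria-lysing enzyme lysozyme M, gave 53.1 to 55.7% of this sum. Its level was 175 and 184 TPM in KH and 146 and 164 TPM in DNMT3ABKO cells, and no other of the 10 passed 27 TPM. Lyz2 lies on the minus strand of chromosome 10 at chr10:117277331-117282321 (mm10), next to its paralog Lyz1. Of the 1267 words of 50 bases in the Lyz2 transcripts, 195 (15.4%) also occur in Lyz1, so some reads can be shared. Lyz1 itself was listed at 1.19 to 1.63 TPM at 0 h.

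The 3 genes of C1q encode the A, B and C chains of 1 secreted complex and are neighbours on the minus strand of chromosome 4, with C1qa at chr4:136895917-136898803, C1qb at chr4:136880129-136886187 and C1qc at chr4:136889804-136893065 (mm10). C1qa stood at 19.9 and 23.5 TPM in KH cells and at 22.1 and 20.8 TPM in DNMT3ABKO cells at 0 h. C1qb was the lowest of the 3, at 11 and 12.5 TPM and at 10.4 and 10.9 TPM. C1qa was thus 1.85 times C1qb in KH and 2.01 times C1qb in DNMT3ABKO cells, and at 72 h the ratios were 1.74 and 1.76. C1qc was 1.32 and 1.31 times C1qb at 0 h and 1.23 and 1.37 times C1qb at 72 h.

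Promoters of these genes are shown because most of the members moved together. RefSeq windows (GRCm38.p6, from 250 bases before to 50 bases after the start) were used for 7 of the 10, namely Lyz2, C1qb, C1qc, Fcer1g, Lcp1, Cyba and Cd68. No entry was found for C1qa and Tyrobp, and Csf1r was left out of the search. The letters AGGAAG, which occur in many sites of the PU.1 family, were searched on both strands, where the other strand reads CTTCCT. They occurred in 4 of the 7 (Lyz2, C1qb, C1qc and Fcer1g) and in 35.4% of all 32851 promoter windows. They were not found in the windows of Lcp1, Cyba and Cd68, which says only that these letters are not there. Lcp1, which is not printed below, was among the genes that fell, to 5.34% of 0 h in KH and 11.2% in DNMT3ABKO cells at 144 h. Whether the letters bear on the course of the genes was not tested. The stretches are printed 5′ to 3′ along the gene, all from the minus strand, with the 6 letters in capitals. Each ends before the outermost start in RefSeq or in the GENCODE annotation. A further occurrence in the windows of Fcer1g and of C1qb lies outside the printed stretches. Lyz2 (chr10:117282322-117282522) and Lyz1 (chr10:117292869-117293118) are given as the pair that can share reads, Fcer1g (chr1:171234366-171234599) and C1qb (chr4:136886201-136886450) as members that fell with Lyz2, and Cd68 (chr11:69666171-69666420) as the member that fell least.
Lyz2: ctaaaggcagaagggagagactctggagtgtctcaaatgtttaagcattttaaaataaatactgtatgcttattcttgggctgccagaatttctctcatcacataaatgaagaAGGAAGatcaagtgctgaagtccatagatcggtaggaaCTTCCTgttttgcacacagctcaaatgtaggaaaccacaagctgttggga
Lyz1: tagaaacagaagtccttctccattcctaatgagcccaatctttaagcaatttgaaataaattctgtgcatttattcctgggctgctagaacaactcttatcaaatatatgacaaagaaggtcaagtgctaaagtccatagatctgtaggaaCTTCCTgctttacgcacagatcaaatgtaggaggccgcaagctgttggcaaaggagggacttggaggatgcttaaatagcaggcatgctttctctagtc
Fcer1g: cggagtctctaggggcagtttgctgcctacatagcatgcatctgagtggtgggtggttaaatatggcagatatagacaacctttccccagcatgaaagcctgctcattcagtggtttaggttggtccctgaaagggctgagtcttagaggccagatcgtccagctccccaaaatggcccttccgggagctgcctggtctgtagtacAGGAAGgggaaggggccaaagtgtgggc
C1qb: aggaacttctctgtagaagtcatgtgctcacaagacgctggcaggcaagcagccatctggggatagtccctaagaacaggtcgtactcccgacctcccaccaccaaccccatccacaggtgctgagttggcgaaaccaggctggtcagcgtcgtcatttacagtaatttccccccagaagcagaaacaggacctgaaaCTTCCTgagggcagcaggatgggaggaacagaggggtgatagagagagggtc
Cd68: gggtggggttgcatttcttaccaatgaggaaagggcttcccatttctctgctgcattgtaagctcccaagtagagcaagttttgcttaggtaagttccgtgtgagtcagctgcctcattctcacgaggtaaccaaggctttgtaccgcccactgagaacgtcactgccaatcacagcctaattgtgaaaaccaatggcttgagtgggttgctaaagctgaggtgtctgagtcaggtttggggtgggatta

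Over the 300 bases of the windows, Lyz2 and Lyz1 were identical at 201 positions (67.0%) when aligned at their starts. The CTTCCT of both lies 99 bases before the RefSeq start, and Lyz2 has a further AGGAAG 137 bases before it. The printed Lyz2 stretch stops upstream of the RefSeq start, so these distances do not run to its printed end.

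The receptor and its partners were lower than Lyz2. Csf1r, the receptor for the growth factors Csf1 and Il34, stood at 6.89 and 7.44 TPM in KH and at 5.21 and 6.15 TPM in DNMT3ABKO cells at 0 h. Csf1r overlaps Hmgxb3 on the opposite strand by 871 bases, and the mean of Hmgxb3 in KH cells was 21.8 TPM at 0 h and 30.1 TPM at 144 h. Tyrobp, the adaptor DAP12 of receptors such as TREM2, stood at 15.1 and 15.7 TPM in KH and at 15.7 and 13.8 TPM in DNMT3ABKO cells. Fcer1g, the gamma chain that Fc receptors signal through, stood at 8.89 and 9.78 TPM in KH and at 7.28 and 8.86 TPM in DNMT3ABKO cells. The lines overlapped at 0 h for Tyrobp but not for Csf1r and Fcer1g, where both DNMT3ABKO libraries were the lower.

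**Figure D1:**
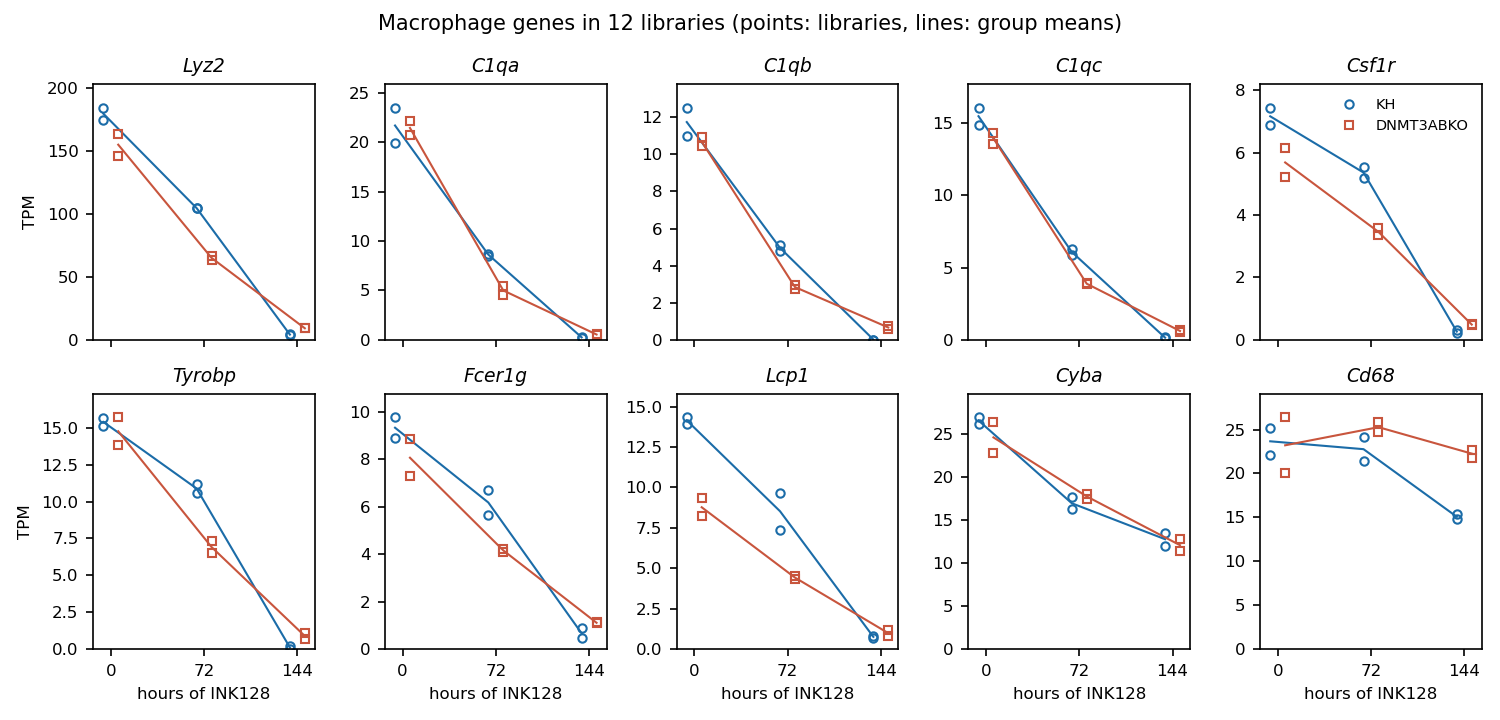
TPM of the 10 genes (vertical axes, linear, a scale per gene) in all 12 libraries by hours of INK128 (horizontal axes), with KH as circles, DNMT3ABKO as squares and lines through the means of 2 libraries. In 8 genes DNMT3ABKO lies below KH at 72 h and reaches a level at or above it at 144 h, while Cyba and Cd68 keep much of their level.

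As a share of library RNA, most of the summed level of these genes was lost within 144 h in KH cells. Lyz2 fell to 104 and 104 TPM at 72 h, 58.2% of its 0 h mean, and to 4.21 and 3.66 TPM at 144 h, 2.19% of it. The C1q genes fell further by 72 h, to 39.7% (C1qa), 42.1% (C1qb) and 39.2% (C1qc) of their 0 h means. At 144 h C1qa was at 0.29 and 0.15 TPM, C1qc at 0.11 and 0.15 TPM, and C1qb was listed at 0 in both libraries. The C1q genes were thus ahead of Lyz2 at 72 h, and neither the 72 h nor the 144 h libraries overlapped those of the time before.

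The receptor and adaptor genes kept more at 72 h in KH cells, and their remainders at 144 h were unequal. Csf1r was at 5.52 and 5.19 TPM at 72 h (74.8% of 0 h) and at 0.30 and 0.21 TPM at 144 h (3.57%). Tyrobp was at 11.2 and 10.6 TPM at 72 h (70.7%), and at 144 h it was listed at 0 in replicate 1 and at 0.22 TPM in replicate 2 (0.71%). Fcer1g was at 5.66 and 6.70 TPM (66.2%) and then at 0.88 and 0.45 TPM (7.12%). For these 3 genes most of the loss fell between 72 and 144 h. Lcp1, which encodes the leukocyte actin-bundling protein L-plastin, went from 14 and 14.3 TPM to 7.39 and 9.66 TPM (60.2%) and then to 0.81 and 0.70 TPM (5.34%).

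Cyba and Cd68 did not share this depth of loss. Cyba encodes the p22phox subunit of the phagocyte NADPH oxidase and is also used by other cell types, and in KH cells it went from 26.2 and 27.0 TPM at 0 h to 17.7 and 16.3 TPM at 72 h and to 12 and 13.5 TPM at 144 h, 48.1% of its start. Cd68, which encodes a lysosomal membrane glycoprotein, was at 22.2 and 25.2 TPM at 0 h, at 24.1 and 21.4 TPM at 72 h and at 14.8 and 15.3 TPM at 144 h (63.7%). Its 0 and 72 h libraries overlapped, and only those of 144 h were lower than both. For the other 9 genes in KH cells both 72 h libraries lay below both of 0 h, against 32.0% of all tested genes, which follows from how the genes were picked.

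In DNMT3ABKO cells Lyz2 and the C1q genes kept smaller shares of their 0 h means at 72 h than in KH cells, and larger ones at 144 h. Lyz2 was at 63.1 and 66.6 TPM at 72 h, 41.9% of its 0 h mean, and at 8.85 and 9.05 TPM at 144 h, 5.78% of it. C1qa was at 4.56 and 5.40 TPM at 72 h (23.2%) and at 0.43 and 0.59 TPM at 144 h (2.38%). C1qb was at 2.92 and 2.75 TPM at 72 h (26.5%) and at 0.71 and 0.59 TPM at 144 h (6.09%). C1qb could thus still be seen in both libraries at 144 h, where both KH libraries were listed at 0. C1qc stood at 3.93 and 3.82 TPM at 72 h (27.7%) and at 0.53 and 0.66 TPM at 144 h (4.26%).

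The receptor and adaptor genes of DNMT3ABKO cells also kept more at 72 h than the C1q genes. Csf1r was at 3.34 and 3.57 TPM at 72 h (60.8% of 0 h) and at 0.45 and 0.51 TPM at 144 h (8.44%). Tyrobp was at 6.50 and 7.34 TPM (46.9%) and then at 1.11 and 0.66 TPM (6.0%). Fcer1g was at 4.23 and 4.09 TPM (51.6%) and then at 1.08 and 1.14 TPM (13.7%). As in KH cells, Csf1r kept the largest share of the 3 at 72 h and Fcer1g the largest at 144 h. Lcp1 was at 4.50 and 4.34 TPM (50.4%) and then at 0.80 and 1.16 TPM (11.2%), from 8.21 and 9.33 TPM at 0 h.

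Cyba and Cd68 again stood apart in DNMT3ABKO cells. Cyba went from 26.4 and 22.8 TPM at 0 h to 17.4 and 18.1 TPM at 72 h and to 12.8 and 11.4 TPM at 144 h (49.1%). Cd68 was at 20.0 and 26.4 TPM at 0 h, at 24.7 and 25.8 TPM at 72 h and at 22.7 and 21.8 TPM at 144 h (95.9%). The libraries of Cd68 at 72 and 144 h all lay within the range of those at 0 h. At 72 h, 8 of the 10 genes kept a larger share of their own 0 h mean in KH than in DNMT3ABKO cells, and at 144 h all 10 kept a larger share in DNMT3ABKO cells.

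**Figure D2:**
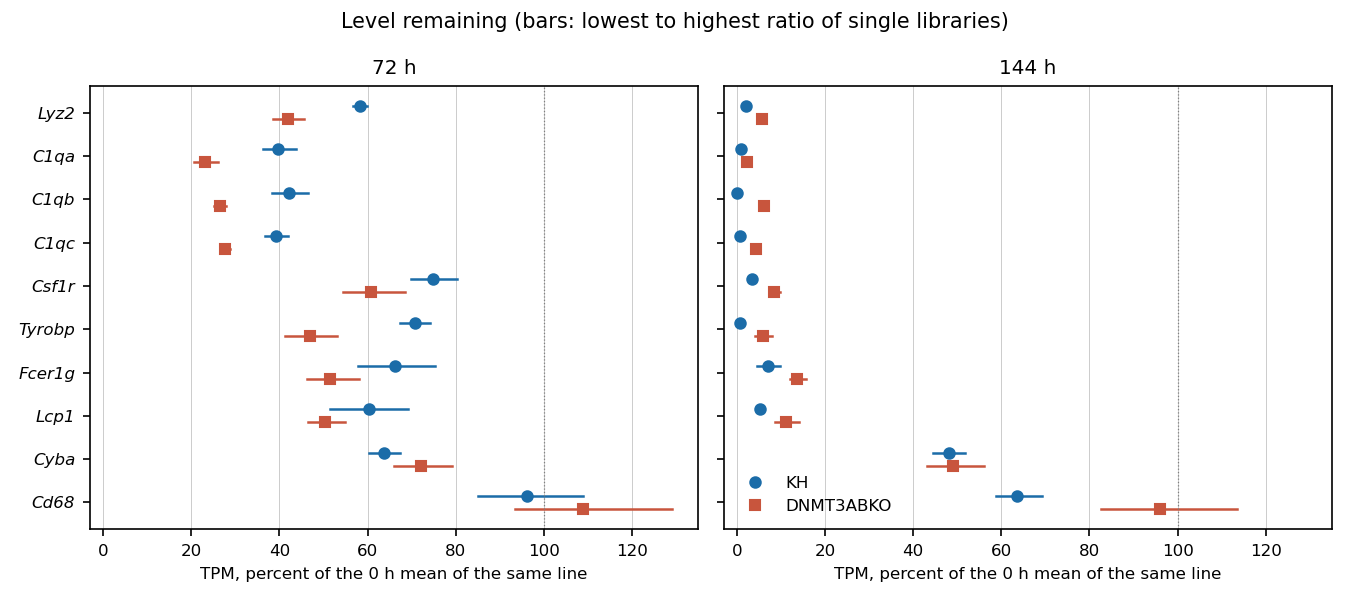
TPM at 72 h (left) and 144 h (right) as a percent of the 0 h mean of the same line (horizontal axes, linear) for each gene, with KH as circles and DNMT3ABKO as squares and bars from the lowest to the highest ratio between single libraries. The shares run from 39.2 to 96.2% in KH and from 23.2 to 109% in DNMT3ABKO cells at 72 h, and at 144 h all but Cyba and Cd68 lie under 14%.

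As a sum, the 10 genes kept 60.0% (SD 2.92, from 2 libraries per group) of their 0 h level at 72 h and 10.4% (SD 0.55) at 144 h in KH cells. In DNMT3ABKO cells they kept 48.4% (SD 3.12) and 17.0% (SD 1.05). The later values rest on the pair that stayed high. Without Cyba and Cd68, a choice made after their values were seen, the sum kept 56.5 and 2.21% in KH and 40.1 and 5.95% in DNMT3ABKO cells. Without Lyz2 it kept 62.2 and 20.6% in KH and 56.1 and 30.1% in DNMT3ABKO cells. TPM are shares of the RNA in a bulk sample. Fewer macrophages, less of this RNA per cell and more RNA from other cells can therefore not be told apart.

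Fibroblast markers, genes of the cells that feeders are made of, also fell, with more of their loss before 72 h. The 15 markers summed to 1288 and 1380 TPM in KH and to 1524 and 1501 TPM in DNMT3ABKO cells at 0 h. Their sum kept 26.7% at 72 h and 4.8% at 144 h in KH, and 19.0 and 4.51% in DNMT3ABKO cells. At 72 h each of the 10 macrophage genes kept more than the fibroblast median, which was 25.5% in KH and 20.7% in DNMT3ABKO cells. The lists overlapped, as tested fibroblast markers kept up to 59.5% in KH and 42.5% in DNMT3ABKO cells. The lowest of the 10 macrophage genes kept 39.2 and 23.2%. The median over the 10 genes was 62.0% in KH and 48.6% in DNMT3ABKO cells at 72 h and 2.88 and 7.27% at 144 h, beside medians over all 15727 tested genes of 106 and 109% and of 104 and 104%. Set against the fibroblast sum of the same library, the sum of the 10 genes was 24.3% in both KH libraries at 0 h. It then stood at 54.2 and 55.0% after 72 h, and at 51.0 and 55.0% after 144 h. In DNMT3ABKO cells it was 18.0 and 19.8% before treatment, 44.2 and 52.6% after 72 h, and 70.5 and 71.8% after 144 h. The values of 144 h again rest on Cyba and Cd68. Without this pair the sum in KH cells was 20.6% of the fibroblast sum in both libraries before treatment, 42.7 and 44.3% after 72 h, and 10.1 and 8.85% after 144 h, so that it ended below its start. In DNMT3ABKO cells it was 15 and 16.5%, 30.5 and 36.3%, and 19.9 and 21.7%, above its start at both later times. Whether ES cells contribute to any of these sums was not tested.

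The lines were then compared at each time in a limma fit over all 15727 tested genes on the log2(TPM + 1) scale, which understates the change of low genes, with Benjamini-Hochberg adjustment. At 0 h the macrophage genes differed little between lines. Of the 10 genes, 1 was called lower in DNMT3ABKO cells, beside 4.14% of all tested genes, and this was Lcp1 (log2 difference -0.63, SE 0.13, adjusted p = 0.017). For Lcp1 the adjusted p was 0.0705 without KH replicate 1, 0.0987 without KH replicate 2 and 0.0654 without DNMT3ABKO replicate 1 of 0 h, and without DNMT3ABKO replicate 2 of 0 h the count was 3 in place of 1. The adjusted p of Lcp1 was 0.119 in a fit of these 2 groups alone and 0.0587 under the replicate block, where the count was 0. The other 9 differences lay between -0.29 (Csf1r) and -0.01 (C1qa), and those of C1qa, Tyrobp and Cd68 changed sign with median-ratio scaling. In 6 genes both DNMT3ABKO libraries were below both KH libraries, beside 24.4% of all tested genes, and in the other 4 the lines overlapped.

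At 72 h DNMT3ABKO cells had lower TPM for most of the macrophage genes. Of the 10 genes, 8 were called lower, where 10% of all tested genes were called lower. The secreted products were all among them, with log2 differences of -0.68 for Lyz2 (SE 0.08, adjusted p = 2.56e-04), -0.69 for C1qa (SE 0.12, adjusted p = 0.00315), -0.63 for C1qb (SE 0.10, adjusted p = 0.00179) and -0.54 for C1qc (SE 0.09, adjusted p = 0.00326). Lcp1 was lower by a log2 difference of -0.80 (SE 0.13, adjusted p = 0.00259), but it had been lower at 0 h already. These 5 genes were called under each of the 17 alternatives run.

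The receptor and the adaptors were called lower at 72 h with less certainty. Csf1r differed by -0.51 (SE 0.11, adjusted p = 0.00826), and its adjusted p was 0.0735 without KH replicate 1 and 0.0657 without DNMT3ABKO replicate 1 of 72 h. Tyrobp differed by -0.59 (SE 0.14, adjusted p = 0.0161), with 0.105 and 0.0678 without KH replicates 1 and 2 and 0.116 without DNMT3ABKO replicate 1. Fcer1g differed by -0.47 (SE 0.14, adjusted p = 0.0446), and leaving out any of 8 libraries raised this to between 0.0584 and 0.254. These 8 libraries were both of KH at 0 h, both of KH at 72 h, both of DNMT3ABKO at 72 h and both of DNMT3ABKO at 144 h. With a pseudocount of 0.1 TPM the adjusted p of Tyrobp was 0.338 and that of Fcer1g 0.142, and under the replicate block they were 0.108 and 0.109. Cyba (0.06, SE 0.10) and Cd68 (0.15, SE 0.12) were not called. Both DNMT3ABKO libraries lay below both KH libraries in the same 8 genes that were called, beside 40.0% of all tested genes, Cd68 lay above, beside 30.1% of them, and Cyba overlapped. The count of 8 became 6 under the replicate block and 5 without KH replicate 1 or DNMT3ABKO replicate 1 of 72 h.

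At 144 h the direction was the opposite for some of the genes. Of the 10 genes, 5 were called higher in DNMT3ABKO cells, where 11% of all tested genes were called higher. Cd68 is among these 5 but had not been called lower at 72 h. Lyz2 was higher by 1.01 (SE 0.08, adjusted p = 8.61e-06), Tyrobp by 0.76 (SE 0.14, adjusted p = 0.00315), C1qb by 0.72 (SE 0.10, adjusted p = 5.81e-04) and C1qc by 0.49 (SE 0.09, adjusted p = 0.00384). These 4 were called under each of the 17 alternatives, but apart from Lyz2 their levels were at most 1.11 TPM, so the size of the difference depends on the pseudocount, and that of C1qb was 2.90 with a pseudocount of 0.1 TPM. Cd68 was higher by 0.53 (SE 0.12, adjusted p = 0.00962), with an adjusted p of 0.0616 without KH replicate 1 and of 0.0628 without DNMT3ABKO replicate 1 of 144 h. Under the replicate block it was 0.0521, and the count became 4.

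The other 5 genes at 144 h were not called. Fcer1g differed by 0.35 (SE 0.14), C1qa by 0.31 (SE 0.12), Csf1r by 0.24 (SE 0.11), Lcp1 by 0.17 (SE 0.13) and Cyba by -0.07 (SE 0.10). In 8 of the 10 genes both DNMT3ABKO libraries lay above both KH libraries, beside 29.7% of all tested genes, and Lcp1 and Cyba overlapped.

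**Figure D3:**
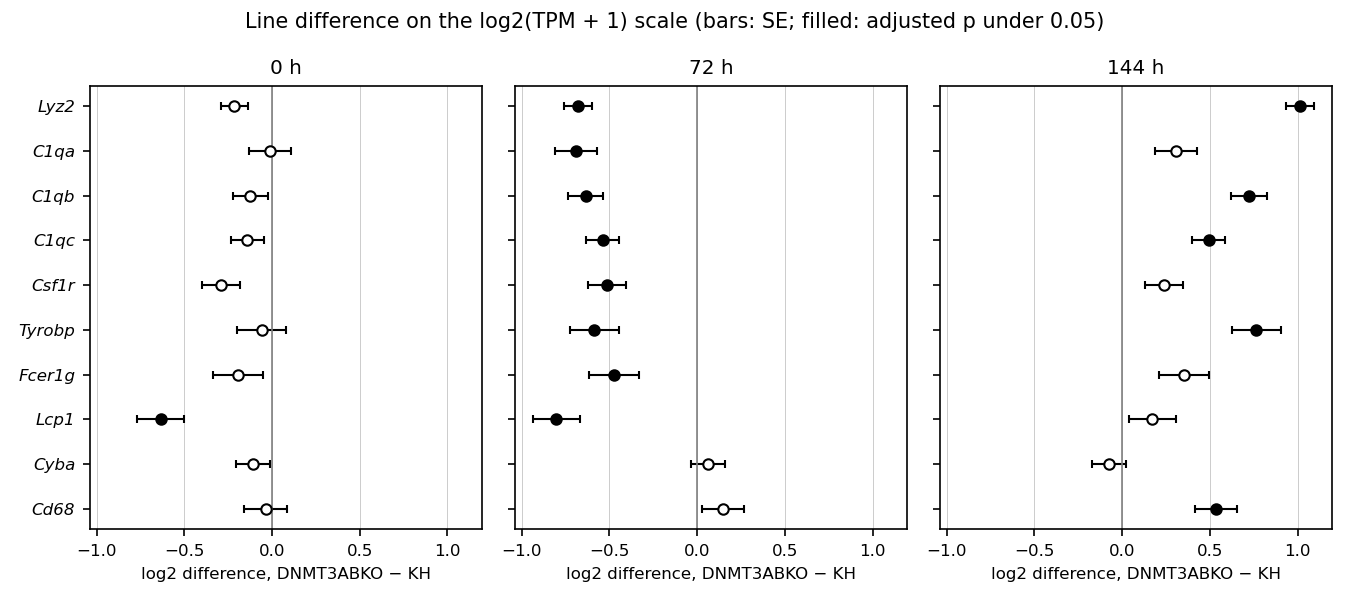
Log2 difference between DNMT3ABKO and KH cells (horizontal axes, log2(TPM + 1) scale) for each gene at 0, 72 and 144 h, with the SE from limma as bars and filled points for an adjusted p under 0.05. At 72 h 8 of the points lie between -0.80 and -0.47, and at 144 h 9 of them lie above 0.

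The pace itself was compared as the difference between lines in the change from 0 h. These contrasts use the same 0 h libraries as the falls that the genes were picked for, and both share their 0 h libraries with each other. From 0 to 72 h, 2 genes were called, both with a larger fall in DNMT3ABKO cells, beside 1.86% of all tested genes called in that direction. C1qa differed by -0.68 (SE 0.17, adjusted p = 0.0496) and Lyz2 by -0.46 (SE 0.11, adjusted p = 0.0443). Both calls were close to the threshold. Leaving out any library other than the DNMT3ABKO replicate 2 of 0 h ended the call of C1qa (adjusted p 0.0516 to 0.184), and any other than the DNMT3ABKO replicates of 0 h that of Lyz2 (adjusted p 0.0517 to 0.167). Both calls also ended with a pseudocount of 0.1 TPM, without the filter on low values and in a fit of the compared groups alone, and under the replicate block the adjusted p was 0.0977 for C1qa and 0.0775 for Lyz2. Of the other 8, C1qb (-0.51, SE 0.14), Tyrobp (-0.53, SE 0.20) and C1qc (-0.40, SE 0.13) had the same sign, and Cyba (0.17, SE 0.14) and Cd68 (0.18, SE 0.17) the opposite one.

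From 0 to 144 h, 5 genes were called, all with a smaller fall in DNMT3ABKO cells, beside 4.89% of all tested genes called in that direction. Lyz2 differed by 1.23 (SE 0.11, adjusted p = 5.89e-05) and C1qb by 0.85 (SE 0.14, adjusted p = 0.00488), and both were called under each of the 17 alternatives. C1qc differed by 0.64 (SE 0.13, adjusted p = 0.0157), Tyrobp by 0.82 (SE 0.20, adjusted p = 0.0305) and Lcp1 by 0.81 (SE 0.19, adjusted p = 0.0283). The call of C1qc ended without KH replicate 2 of 0 h, KH replicate 1 of 144 h or DNMT3ABKO replicate 2 of 144 h (adjusted p 0.0568 to 0.0731). That of Lcp1 ended without either KH library of 0 or 144 h or DNMT3ABKO replicate 2 of 144 h (0.0698 to 0.111), and that of Tyrobp without any KH library other than replicate 2 of 144 h or without DNMT3ABKO replicate 1 of 144 h (0.0543 to 0.113). Without DNMT3ABKO replicate 2 of 0 h the count was 8 in place of 5. A fit of the compared groups alone also ended these 3 calls, and testing without the filter on low values those of Lcp1 and Tyrobp. Under the replicate block the adjusted p of Tyrobp was 0.0504 and the count became 4. All 10 differences were positive, down to 0.04 for Cyba, whose sign depended on the libraries used.

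Few fibroblast markers were called between lines, and they started from another offset. At 0 h 2 of the 13 tested markers, Col3a1 and Col5a1, were called higher in DNMT3ABKO cells by limma. For Col5a1 the adjusted p was 0.0448, or 0.109 under the replicate block. The median log2 difference at 0 h was 0.24, beside -0.13 for the 10 macrophage genes. At 72 h 0 of the 13 tested markers were called between lines by limma (5 at an unadjusted p under 0.05), with a median log2 difference of -0.21, and at 144 h 1 of 13 was called (0 under the replicate block), with a median of 0.06. For the 10 macrophage genes the medians were -0.56 and 0.42, and for all tested genes both were -0.04. Whether macrophage and fibroblast genes differ in their line difference was not tested. The difference in change from 0 to 72 h was called by limma for 0 of the 13 fibroblast markers (7 at an unadjusted p under 0.05), and all 13 values were negative, with a median of -0.37 beside -0.34 for the 10 macrophage genes. From 0 to 144 h it was also called for 0 of the 13 (4 at an unadjusted p under 0.05). There the median was -0.10, beside 0.60 for the 10 macrophage genes.

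A further 49 macrophage genes, written down with these results known, showed how far the 10 stand for the cell type. Of the 49, 34 reached the mean of 1 TPM and were tested. Many of them reached it mainly through their levels at 0 and 72 h, which favours lower calls at 144 h. In KH cells 12 were called lower and 6 higher at 72 h, beside 19.5% and 28.3% of all tested genes, and 29 were lower and 1 higher at 144 h, beside 23.9% and 27.4%. In DNMT3ABKO cells 20 were lower and 6 higher at 72 h, beside 21.6% and 34.3%, and 30 were lower and 3 higher at 144 h, beside 26.2% and 31.4%. Their median share of the 0 h level was 82.3% in KH and 58.0% in DNMT3ABKO cells at 72 h, and 8.21 and 22.2% at 144 h.

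Of 16 surface and pattern receptors 10 were tested, and all 10 were called lower at 144 h in both lines. They passed the 1 TPM mean mainly through their levels at 0 and 72 h, so these calls are partly built into the filter. Adgre1, the F4/80 antigen, went in KH cells from 7.23 and 8.71 TPM to 3.33 and 3.55 TPM at 72 h (log2 change -1.01, SE 0.15, adjusted p = 3.84e-04) and to 0.014 and 0.13 TPM at 144 h. Msr1, a scavenger receptor, kept 52.5% at 72 h and 1.57% at 144 h in KH, and 36.4 and 5.22% in DNMT3ABKO cells. Cd14, the co-receptor for bacterial lipopolysaccharide, was instead higher in KH cells at 72 h, at 18.6 and 16.3 TPM against 13.3 and 14.8 TPM (log2 change 0.29, SE 0.11, adjusted p = 0.0478, or 0.0707 under the replicate block), and had gone to 0.71 and 0.57 TPM at 144 h. Itgam, the CD11b integrin, kept 102% at 72 h and 6.96% at 144 h in KH cells. Loss of surface receptors was therefore spread over time. In KH cells at 72 h Adgre1 lay near the C1q genes and Msr1 between these and Lyz2, while Cd14 and Itgam fell later.

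Genes of the effector group also varied in pace. Ctss, the lysosomal protease cathepsin S, kept 81.6% at 72 h and 4.38% at 144 h in KH cells, where DNMT3ABKO cells kept 55.0 and 8.68%. Gpnmb, a glycoprotein of phagocytes, was at 18.0 and 19.7 TPM at 0 h, at 19.0 and 19.0 TPM at 72 h and at 1.13 and 1.13 TPM at 144 h in KH cells. In DNMT3ABKO cells Gpnmb was at 9.72 and 10.1 TPM at 72 h, lower than in KH cells (log2 difference -0.88, SE 0.09, adjusted p = 8.46e-05). Pf4, a chemokine of macrophages and platelets, kept the lowest share of the 34 at 72 h, 26.5% in KH and 20.7% in DNMT3ABKO cells. Mpeg1, which encodes the pore-forming protein perforin-2, kept 129% in KH and 93.9% in DNMT3ABKO cells at 72 h and 7.87 and 17.6% at 144 h.

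The oxidase group holds the partners of Cyba. Cyba remained at 12 to 13.5 TPM in KH cells at 144 h, while the catalytic subunit gene Cybb was at 0.13 and 0.16 TPM, Ncf1 at 0.23 and 0.18 TPM, and Ncf4 at 0 and 0.14 TPM. All 4 tested oxidase genes were called lower at 144 h in both lines, with the same limit from the filter as for the receptors. Of the Fc receptor genes that pair with Fcer1g, Fcgr3 fell from 4.36 and 5.41 TPM to 0.67 and 0.46 TPM in KH cells, and Fcgr1, too low to be tested, was at 0.56 and 0.75 TPM at 0 h and listed at 0 at 144 h. Fcgr2b, the inhibitory receptor that does not use Fcer1g, rose in KH cells from 4.30 and 5.09 TPM to 11.1 and 12.3 TPM at 72 h (log2 change 1.16, SE 0.18, adjusted p = 5.61e-04) and rose in DNMT3ABKO cells to 10.8 and 10.4 TPM (log2 change 1.26, SE 0.18, adjusted p = 2.24e-04).

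Csf1, the ligand of Csf1r that fibroblasts are known to secrete, fell in both lines. It went from 60.9 and 69.5 TPM at 0 h to 46.3 and 44.6 TPM at 72 h and to 7.28 and 7.01 TPM at 144 h in KH cells. In DNMT3ABKO cells it went from 58.1 and 65.3 TPM to 35.1 and 30.1 TPM and to 7.30 and 7.33 TPM. The log2 change to 144 h was -3.02 in KH (SE 0.10, adjusted p = 1.32e-08) and -2.91 in DNMT3ABKO cells (SE 0.10, adjusted p = 9.40e-09). Csf1 was lower in DNMT3ABKO than in KH cells at 72 h (log2 difference -0.47, SE 0.10, adjusted p = 0.00767, or 0.0573 under the replicate block), and at 144 h the difference was 0.03 (SE 0.10, adjusted p = 0.859). Il34, the second ligand, was at most at 1.81 TPM.

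Between lines, 24 of the 34 further macrophage genes were called lower and 3 higher in DNMT3ABKO cells at 72 h, beside 10% and 9.26% of all tested genes, with all 10 receptors among the lower ones. At 144 h 11 were higher and 4 lower, beside 11% and 15.5%. The 24 was the value that moved most with the libraries, to 10 without KH replicate 1 or DNMT3ABKO replicate 2, 13 without KH replicate 2 and 12 without DNMT3ABKO replicate 1 of 72 h. Under the replicate block the 24 became 12 and the 10 receptors 3. At 144 h this block ended the higher calls of Cybb, Cd53 and Mpeg1 (limma adjusted p 0.0867, 0.14 and 0.0685). It also ended the lower call of Coro1a, named for this reason (0.053). The 11 became 7 without either KH library and 6 without DNMT3ABKO replicate 1 of 144 h. Because these genes come from the same cell type and the same libraries, they are not an independent check of the 10.

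**Figure D4:**
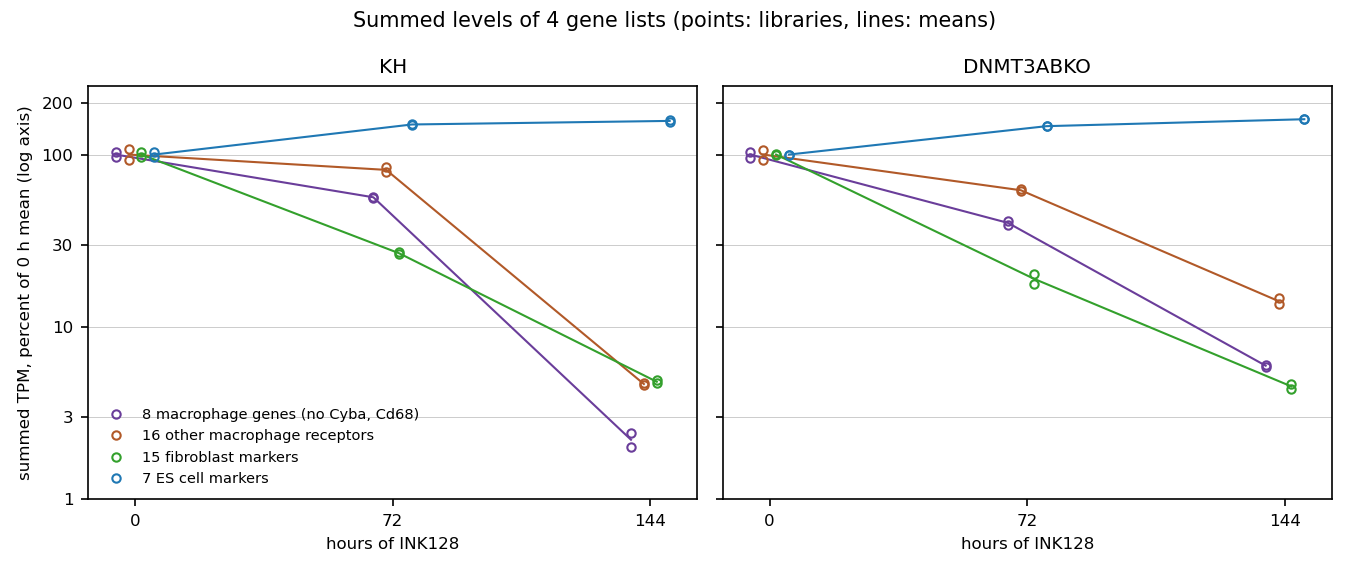
Summed TPM of 8 of the macrophage genes (without Cyba and Cd68), 16 other macrophage surface receptors, 15 fibroblast markers and 7 ES cell markers as a percent of the 0 h mean of the same line (vertical axis, logarithmic) by hours of INK128, with a point per library and lines through the means. At 72 h the receptors kept 81.5% in KH and 62.1% in DNMT3ABKO cells, the 8 genes 56.5 and 40.1% and the fibroblast markers 26.7 and 19.0%, and the ES cell markers stood at 149 and 146%.

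The course of each gene was set beside the mean of the other 9 over the 12 libraries, as a description, since the libraries share the 3 time points and the genes were picked for their fall. Pearson's r was 0.973 to 0.994 for 8 of the genes, 0.902 for Cyba and 0.639 for Cd68. Among all other tested genes, the 10 with the highest r to the mean course of the members (0.992 to 0.995) were Cd53, Slfn2, Acta2, Igfbp7, Wisp1, Tlr2, Lox, Lhfp, Tnfaip2 and Col8a1. Cd53 and Tlr2 are in the further macrophage lists. Acta2, the smooth muscle actin of myofibroblasts, and Lox, a collagen cross-linking enzyme in the fibroblast list, belong to other cells, and the mean of Acta2 in KH cells was 572 TPM at 0 h, 235 TPM at 72 h and 28.8 TPM at 144 h. A course like that of the macrophage genes was thus also found in genes of mesenchymal cells.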

How the data were processed

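Total RNA with ERCC spike-in had been depleted of ribosomal RNA and sequenced. Per the submitters' notes, reads were trimmed with cutadapt 2.4, aligned to mm10 with STAR 2.7.3a and quantified with StringTie 2.0. The authors deposited TPM for each gene, 1 file per library, with replicates kept apart and each file summing to 1000000. Spike-ins were not used here, so all values are relative shares, and strand use in counting is not given in the sources used here. Repeated rows of a gene (9 to 16 per file) were summed.

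Log2(TPM + 1) was fitted for 15727 genes whose mean reached 1 TPM, with limma 3.58.1 (R 4.3.3, lmFit and eBayes with a trend), with 1 coefficient for each of 6 groups and no covariate. Adjusted p-values are Benjamini-Hochberg over all tested genes of a contrast, two-sided, and genes are called at an adjusted p under 0.05. On simulated data for DNMT3ABKO against KH at 72 h, 175 of 200 genes changed by 1 on the log2 scale (87.5%) were called, and 2.78% of 180 calls were unchanged genes. The simulated libraries had independent normal noise around 1 mean per gene, and no other genes were changed. Smaller changes and shared replicate effects were not simulated, so these rates need not hold for the measured libraries. Percent of 0 h is the ratio of group means. For each gene 17 alternatives were run. They were the 12 fits that each leave out a library, a smaller pseudocount (0.1 TPM), all genes without the filter, scaling by median ratios, a fit on the compared groups alone, and the replicate number as a block in each line. The result of this block is also given where it ended the call of a gene printed with its p-value, but not for every count. Sums were also taken without Lyz2, with median-ratio scaling, and, added after seeing the data, without Cyba and Cd68.

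The 10 genes and all lists were chosen with earlier results of these data known. Named were the 10 genes, at most 4 genes with the highest mean per list, defining genes of other cell types, the 10 genes most like the members, and Dnmt3b, with Dnmt3a, as the check of the lines. Some genes of the lists are not reported here. Exceptions are marked, and Ptprc, Ncf1, Ncf4, Cybb, Lyz1 and Hmgxb3 were added for their relation to a member or as lineage markers. Cd163, Marco, Cx3cr1 and Siglec1 were added as macrophage genes with low values. Python 3.11.15, pandas 2.3.3, NumPy 2.4.6 and matplotlib 3.10.9 were used.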

Additional observations from a re-analysis of the deposited data

Results flagged for a closer look

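The change from 0 h differed between the lines, by the interaction term of the limma fit, for 2 genes at 72 h and 5 at 144 h. At 72 h the differences (DNMT3ABKO minus KH, log2) were -0.68 for C1qa and -0.46 for Lyz2. At 144 h they were 1.23 for Lyz2, 0.85 for C1qb, 0.82 for Tyrobp, 0.81 for Lcp1 and 0.64 for C1qc. Lyz2 appears at both times with opposite signs, and both of its contrasts use the same 0 h libraries. With 2 libraries per group, no group was large enough to look for a single library far from the others.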

How the results depend on the processing

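Of the 50 line differences and differences in change of the 10 genes, 21 were called, and 11 of these were called under every alternative. No called difference changed sign. Over all 850 alternative values, 744 kept direction and side of the threshold, 75 lost the call, 15 gained one and 16 changed sign, all 16 of differences that were not called. The labels do not say what the replicate numbers share, and the replicate differences of the groups of a line correlated by -0.10 to 0.10. The replicate block ended 7 calls and added none.

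The count of members lower at 0 h, 1, became 0 with only the groups in the contrast and under the replicate block, and was 0 to 3 with a library left out. The 8 lower at 72 h became 5 to 8 with a library left out, and the 5 higher at 144 h became 8 with a pseudocount of 0.1 TPM. The 2 called in the difference in change at 72 h became 0 with a pseudocount of 0.1 TPM, without the filter, with only the groups in the contrast and under the replicate block, and 0 to 2 with a library left out. The 5 at 144 h became 3 without the filter and 2 with only the groups in the contrast, and 2 to 8 with a library left out. The further macrophage genes lower in DNMT3ABKO cells at 72 h, 24, became 14 with a pseudocount of 0.1 TPM, 15 without the filter, 12 under the replicate block and 10 to 27 with a library left out, and the 11 higher at 144 h became 17 with a pseudocount of 0.1 TPM and 6 to 14 with a library left out. The cause was not tested.

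The summed share of 0 h in KH cells, 60.0% at 72 h and 10.4% at 144 h, became 56.5% at 72 h with median-ratio scaling, 20.6% at 144 h without Lyz2, and 56.5 and 2.21% without Cyba and Cd68. In DNMT3ABKO cells, 48.4 and 17.0% became 44.6% at 72 h with scaling, 56.1 and 30.1% without Lyz2, and 40.1 and 5.95% without Cyba and Cd68. Scaling by median ratios shifted the all-gene median by up to -0.105 (log2, DNMT3ABKO 72 h against 0 h).

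Differences that changed sign were small. With median-ratio scaling the 0 h line difference became 0.056 for C1qa, 0.0071 for Tyrobp and 0.030 for Cd68, and with the replicate block 0.045 for Tyrobp. With a library left out it ranged from -0.13 to 0.10 for C1qa, from -0.15 to 0.028 for Tyrobp and from -0.23 to 0.15 for Cd68, and for Cyba at 144 h from -0.16 to 0.0063. The difference in change ranged from -0.34 to 0.0046 for Lcp1 and from -0.0082 to 0.38 for Cd68 at 72 h, and from -0.065 to 0.14 for Cyba at 144 h.

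Read depth was not used here, so no counting interval can be given, and values under about 1 TPM are imprecise. With 2 libraries per group the tests rest on a spread shared by all groups. When a library is left out, the lone library is assumed to vary like the others.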

Other observations

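Some genes known from leukocytes did not follow the loss, and their levels at 144 h cannot be read as macrophage RNA alone. Laptm5, a lysosomal protein of blood cells, was at 31.6 and 38.8 TPM at 0 h, at 53.4 and 49.6 TPM at 72 h and at 18.9 and 17.6 TPM at 144 h in KH cells. Ptpn6, the phosphatase SHP-1, was at 10.7 and 12 TPM at 0 h and at 11.8 and 11.5 TPM at 144 h in KH cells, and at 7.49 and 7.10 TPM at 144 h in DNMT3ABKO cells, lower than in KH cells (log2 difference -0.61, SE 0.10, adjusted p = 0.00169). Inpp5d, the phosphatase SHIP1, kept 73.6% in KH and 66.0% in DNMT3ABKO cells at 144 h.

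Among the transcription factors, Spi1 went from 3.84 and 3.91 TPM at 0 h to 0.33 and 0.16 TPM at 144 h in KH cells (log2 change -1.97, SE 0.18, adjusted p = 1.49e-05), while Cebpa differed by line. Cebpa, a factor of myeloid and other cells, was at 2.15 and 2.16 TPM in KH and at 10.2 and 8.71 TPM in DNMT3ABKO cells at 144 h (log2 difference 1.72, SE 0.12, adjusted p = 3.49e-06), and in DNMT3ABKO cells it had risen from 3.65 and 3.99 TPM at 0 h. A pair of genes chosen after their values were seen also left the common course. Slc11a1, a metal transporter of phagosomes, was at 0.38 and 0.74 TPM in KH and at 3.63 and 3.07 TPM in DNMT3ABKO cells at 144 h (log2 difference 1.48, SE 0.13, adjusted p = 2.26e-05). Clec7a, the receptor for fungal glucans, was at 0.73 and 0.67 TPM in KH cells at 0 h, at 2.23 and 2.45 TPM at 72 h and at 0.06 and 0.10 TPM at 144 h.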
